A study of Mus musculus with 24 samples.

Results

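Autophagy delivers proteins, glycogen and whole organelles to the lysosome for breakdown, and the 36 genes described here encode its core steps in plantaris, a fast muscle of the mouse hindlimb. They were taken by gene symbol from a curated list. Its rule uses no measured value, but the list was chosen with earlier results of these data known. All 36 matched 1 row each among the 47643 genes of the count table. The series compared 11 samples of mice that breathed normal air with 13 samples of mice given 16 weeks of tobacco smoke, all of them wild-type C57BL/6. Smoke exposure was the only labelled difference, and age and sex were not given in the sources used here. Each sample was read by 3′-end RNA sequencing, which counts fragments next to the poly(A) tail, and values are given as CPM, the usual scale of counts relative to library size, after scaling of the libraries. The series title concerns chronic activity of the aryl hydrocarbon receptor (AhR) and muscle impairment. The comparison therefore asks whether the transcripts of the autophagy and lysosome machinery differ in level after smoke exposure.

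In outline, the ULK kinase complex starts a phagophore membrane, a class III phosphatidylinositol 3-kinase complex marks it with a phospholipid, and 2 ubiquitin-like conjugation systems attach ATG8 proteins (LC3 and GABARAP) to it. Receptors that bind both cargo and ATG8 proteins select what is enclosed, and cathepsins and other acid hydrolases digest the content once the vesicle has fused with a lysosome. Skeletal muscle relies on this route for turnover of mitochondria and glycogen, and loss of the glycogen hydrolase Gaa or of the membrane protein Lamp2 causes a vacuolar muscle disease. The transcription factor Tfeb acts on many lysosomal genes through a motif with the core CACGTG.

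The core motif was looked for in the promoters of the members. These stretches show which genes carry the core that Tfeb and related factors can read, which is only part of the Tfeb motif. The RefSeq promoter table (GRCm38.p6) held 29 of the 36 members, and the 250 bases before the annotated start were searched on both strands. CACGTG, which is its own reverse complement, was present in 8 of the 29 members (27.6%), against 784 of 7705 tested genes (10.2%) and 6.86% of the 27025 genes in the table. The longer palindrome TCACGTGA, which contains the core, was present in 2 members, Atg3 and Ctsd, and in 1.84% of tested genes. The stretches that hold the core are given 5′ to 3′ on the strand of the gene for 6 members, with CACGTG in capitals.
Lamp1 (chr8:13159070-13159160, plus strand): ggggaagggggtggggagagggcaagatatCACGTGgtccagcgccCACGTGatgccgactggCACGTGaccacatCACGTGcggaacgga
Ctsd (chr7:142387890-142388077, minus strand): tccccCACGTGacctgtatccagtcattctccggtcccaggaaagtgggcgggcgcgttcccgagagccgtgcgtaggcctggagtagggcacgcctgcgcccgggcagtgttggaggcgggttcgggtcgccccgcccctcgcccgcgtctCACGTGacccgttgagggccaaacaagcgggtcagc
Atg3 (chr16:45158705-45158793, plus strand): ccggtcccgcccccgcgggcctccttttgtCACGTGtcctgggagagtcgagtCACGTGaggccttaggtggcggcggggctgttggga
Gaa (chr11:119267793-119267858, plus strand): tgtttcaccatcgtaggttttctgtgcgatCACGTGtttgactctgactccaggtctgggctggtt
Ctsl (chr13:64370721-64370770, minus strand): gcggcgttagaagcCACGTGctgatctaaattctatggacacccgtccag
Atg7 (chr6:114670934-114670999, plus strand): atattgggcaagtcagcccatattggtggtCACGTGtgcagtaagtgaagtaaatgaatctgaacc
Lamp1 held 4 copies of the core, at 61, 45, 28 and 15 bases before its start, and Ctsd and Atg3 held 2 each. The remaining members with the core, Atg5 and Bnip3, held 1 copy each. The core of the AhR response element, GCGTG, was found in 17 of the 29 members (58.6%) and in 51.1% of tested genes, and the longer TNGCGTG in 1 member (3.45%), Atg9a, and 7.96% of tested genes. A match describes the letters of the window only.

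The libraries held 2515697 to 4528845 counts, and 3 counts, used as the floor, equal 0.665 to 1.15 CPM depending on the library. Markers of muscle fibres were abundant in every sample, with a summed level of 139935 to 217758 CPM in air and 147069 to 186021 CPM in smoke. Of other cell types, 3 of 5 red blood cell markers were called lower (summed level 486 to 1444 CPM in air, 369 to 883 CPM in smoke) and 2 of 4 Schwann cell markers higher (87.7 to 232.97 CPM in air, 140 to 710 CPM in smoke). Their part in the results was not tested other than by the covariate fits. In whole muscle, fewer cells of a type and less RNA per cell cannot be told apart. Of the 10 macrophage markers, which matter here because macrophages are rich in lysosomes, 8 were tested and 0 called. Of these 8, 7 had a negative log2 fold change (87.5%, against 48.4% of all tested genes), the lowest being −0.30 for C1qb. The summed level of the 10 markers was 103 to 165 CPM in air and 115 to 163 CPM in smoke. Of the defining markers, neither of which passed the filter, Cd68 averaged 1.95 and 1.35 CPM and Adgre1 0.686 and 0.734 CPM. One library stood apart from the rest. In air replicate 11 the log2 levels of tested genes correlated with those of the other air libraries at a mean r of 0.952, against 0.964 to 0.972 for those and 0.958 to 0.971 among smoke libraries. Its scaling factor was 0.857, against 0.969 to 1.07 in other air libraries and 0.904 to 1.04 in smoke. Gm42418, an annotated gene over ribosomal RNA sequence, took 16.1% of its counts, against 9.62 to 14.3% in other air libraries and 11.3 to 17.8% in smoke. Among air samples it held the highest value of 13 members and the lowest of 10, together 23 of 35, and the next library by this count, smoke replicate 5, held 11 of 35 within its group. Its muscle fibre markers summed to 217758 CPM, against at most 171207 CPM in another air library. For part of the results that move with it, values without it are therefore also given.

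No member was called between smoke and air in the fit over all 24 samples. Of the 36 members 35 passed the expression filter, and 0 of the 35 had a Benjamini-Hochberg adjusted p under 0.05 in edgeR's quasi-likelihood test, against 195 of 10159 tested genes (1.92%; 0.728% called higher and 1.19% lower). At an unadjusted p under 0.05 there were 3, Optn, Atg10 and Tfeb, all on the lower side under smoke (8.57% of members, against 15.5% of tested genes, 7.55% higher and 7.95% lower). DESeq2 called 1 member, Optn, and 3.63% of the genes it adjusted, while limma voom called 0 members, with 4 at an unadjusted p under 0.05 (15.6% of all genes), and 1.72% of genes at the adjusted threshold. With RLE scaling, upper-quartile scaling or no expression filter, edgeR called 0 members and 1.98%, 1.89% and 0.727% of genes. With the replicate number as a block it called 0 members and 1.37% of genes. A red blood cell marker score, a macrophage marker score, a clock index (a score of circadian genes) or a Schwann cell marker score (the last chosen after the data were seen) as covariate gave 0 members each, against 0.758%, 1.52%, 0.758% and 0.591% of genes. With the clock index, 10 of the 35 members (28.6%) and 15.3% of all genes were at an unadjusted p under 0.05. Of these 3 were higher under smoke (Atg3, Nbr1 and Ctsl) and 7 lower (Atg2a, Atg4b, Map1lc3b, Sqstm1, Optn, Tfeb and Ctsd), with the lowest edgeR adjusted p at 0.0902 for Optn. One surrogate variable gave 1 member, Optn, and 4.32% of genes. Without air replicate 11, edgeR called 2 members, Optn lower and Map1lc3a higher, against 2.48% of all genes, and without smoke replicate 8 it called Optn alone, against 1.59%. The groups overlapped in all 35 tested members, and in all but 3 (0.0295%) of all tested genes.

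**Figure D1:**
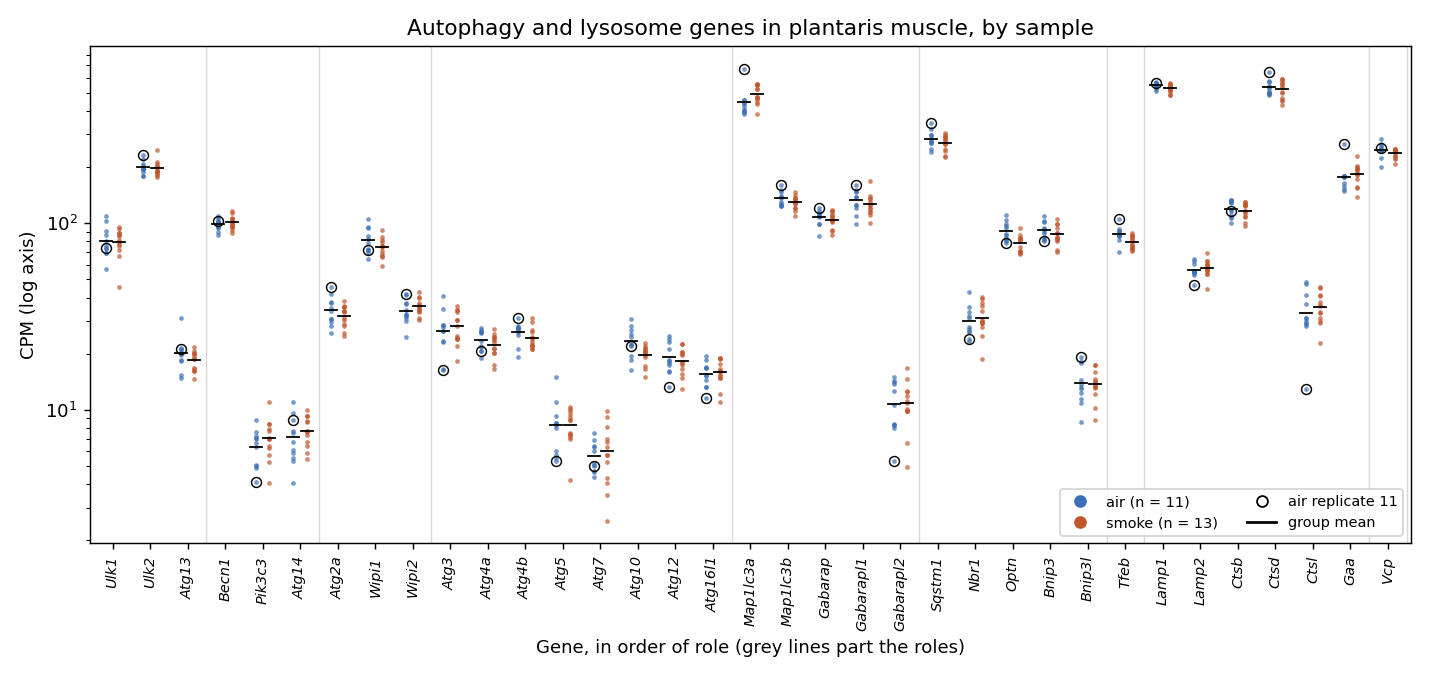
CPM on a log axis for the 35 tested members in order of role; points are samples (11 air, 13 smoke), short lines are group means and rings mark air replicate 11. The groups overlap for every gene, and the ring lies at an edge of the air samples for 23 of the 35 genes.

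The fold changes were small in the fit over all samples without covariates, and the intervals given here hold for that fit. Log2 fold changes of smoke against air ran from −0.24 (Atg10) to 0.16 (Pik3c3), with a median of −0.031 over the 35 members and 0.007 over all tested genes. The median absolute log2 fold change was 0.07 in members and 0.11 in all tested genes. Of the members 21 were on the negative side (60.0%), as were 48.4% of all tested genes. All 35 of the 95% intervals lay within a log2 change of 0.5 in either direction, and 25 lay within 0.3. Of all 10159 tested genes, 7305 and 3495 had intervals within these limits. Members were not compared with genes of like count level. Among members, the widest bounds were a fold of 0.744 for Atg10 and of 1.37 for Pik3c3, which averaged 6.33 CPM in air and is limited by its low count. Of the 35 alternative fits, that with the clock index put the estimate of 8 members outside these intervals, and the other 34 did so for 0 members. In that fit, whose covariate correlates with the group, the log2 fold change was 0.43 for Atg3, 0.40 for Ctsl, 0.32 for Nbr1, −0.30 for Atg2a, −0.20 for Sqstm1 and Ctsd, −0.15 for Gaa and −0.075 for Map1lc3a. Without air replicate 11, 30 of the 35 members kept the sign of their fold change, and the 5 that changed sign were Ulk2, Atg5, Atg16l1, Gabarapl2 and Bnip3l, none of them called in either fit. Of the members 16 moved by more than 1.5 times or changed sign, all with values between −0.11 and 0.12 in that fit.

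**Figure D2:**
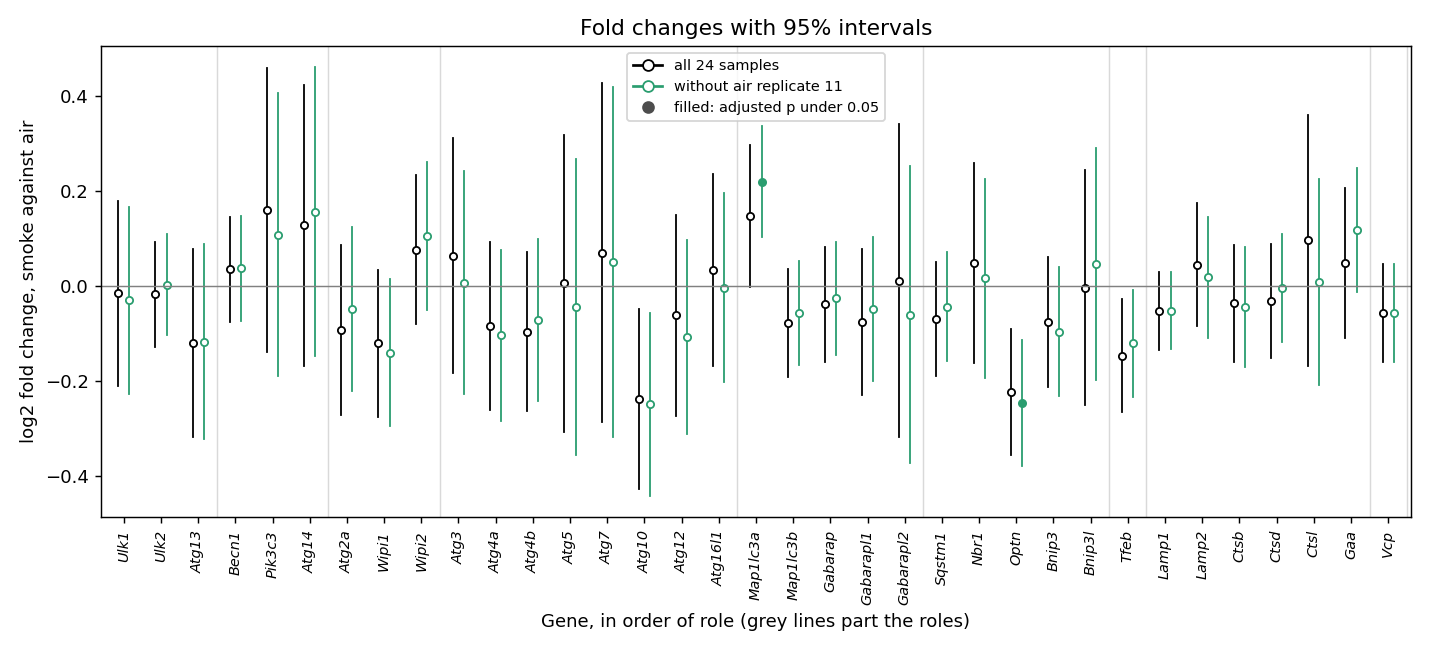
Log2 fold changes of smoke against air with 95% intervals for the 35 tested members, over all 24 samples (black) and without air replicate 11 (green); a filled point has an adjusted p under 0.05. All black points are open, and the filled green ones are Map1lc3a at 0.22 and Optn at −0.25.

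Of the initiation genes, Ulk1 and Ulk2 were close to equal in the groups. Ulk2, a kinase of the initiation complex, lay between 179 and 231.7 CPM in air (median 195) and between 178 and 246.8 CPM in smoke (median 191). The means were 199 ± 16.1 CPM (SD, n = 11) in air and 197 ± 18.2 CPM (SD, n = 13) in smoke, or −0.017 on the log2 scale (standard error 0.054, edgeR adjusted p = 0.929). The groups covered nearly the same range. Ulk1, the kinase that AMPK and mTORC1 act on, averaged 80.6 CPM in air and 79.7 CPM in smoke. Atg13, the adaptor of that complex, averaged 20.1 and 18.4 CPM, with a log2 fold change of −0.12 and 10 of 13 smoke samples under the mean of air. Of these 3 genes 0 passed at an unadjusted p under 0.05.

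All 3 genes of the nucleation complex had positive log2 fold changes, and none was called. Becn1 (Beclin 1) averaged 98.7 CPM in air and 101 CPM in smoke, and its interval reached from −0.074 to 0.145 on the log2 scale, one of the narrower ones. Pik3c3, the lipid kinase itself, and Atg14, its targeting subunit, were low, at 6.33 and 7.12 CPM in air, with log2 fold changes of 0.16 and 0.13 whose intervals both included 0. The transcript end of Becn1 overlaps Cntd1 on the opposite strand, which had 20 counts over all samples.

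Genes that supply membrane and lipid had no call either. Wipi1, which binds the phospholipid mark on the phagophore, averaged 81.1 CPM in air and 74.6 CPM in smoke with 11 of 13 smoke samples under the mean of air (log2 fold change −0.12, edgeR adjusted p = 0.483). Wipi2, which recruits the conjugation machinery, had a log2 fold change of 0.077, and Atg2a, a lipid transfer protein, −0.093, or −0.047 without air replicate 11. Atg9a, the scramblase of the seed vesicles, was the 1 member below the filter. Summed over libraries it had 3 counts in air and 10 in smoke, and no library had more than 4, so that a difference was not detectable at this depth. In the fit without an expression filter its edgeR adjusted p was 0.556. Its last 300 transcript bases are identical to those of the overlapping annotated gene Gm29253, which had 2 counts in all.

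The 8 conjugation genes were expressed at moderate to low levels, from 5.66 CPM in air for Atg7 to 26.6 CPM for Atg3. Atg10, the E2-like enzyme that joins Atg12 to Atg5, had the lowest fold change of all members. Air samples lay between 16.4 and 30.6 CPM (median 22.6) and smoke samples between 15.03 and 22.9 CPM (median 20.4). All 13 smoke samples were under the mean of air, although the groups overlapped over most of the smoke range. Means were 23.4 ± 4.26 CPM (SD) in air and 19.8 ± 2.27 CPM (SD) in smoke, or −0.24 on the log2 scale (standard error 0.093, unadjusted p = 0.0152, edgeR adjusted p = 0.186). With a red blood cell marker score as a covariate, which correlates with the group at r = −0.53, the value was −0.12 (edgeR adjusted p = 0.709). Over all 35 alternative fits its edgeR, DESeq2 or limma adjusted p ran from 0.112 to 0.709. The other 7 genes of the group, Atg3, Atg4a, Atg4b, Atg5, Atg7, Atg12 and Atg16l1, had log2 fold changes from −0.096 to 0.07, and 0 of them passed at an unadjusted p under 0.05. Without air replicate 11 the value of Atg12 was −0.11 in place of −0.061 and that of Atg3 0.0073 in place of 0.065, and with the clock index Atg4b was at −0.25 and Atg4a at −0.20. Atg7 is the E1-like enzyme of both conjugation systems, and the Atg4 proteases trim the ATG8 proteins.

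Of the ATG8 proteins, which coat the autophagosome membrane, Map1lc3a was the most abundant. Air samples lay between 386 and 674 CPM (median 427) and smoke samples between 385 and 558 CPM (median 474). The value of 674 CPM was air replicate 11, and the other 10 air samples lay between 386 and 459 CPM. Smoke samples were above the air mean in 11 of 13 cases. The 4 highest smoke samples were replicates 3, 10, 2 and 1 at 558, 554, 551 and 547 CPM, in which Gm42418 took 12.7, 17.7, 17.0 and 17.8% of counts, and its part in the result was not tested. Means were 444 ± 80.1 CPM (SD) in air and 492 ± 54.7 CPM (SD) in smoke, or 0.15 on the log2 scale (standard error 0.074, unadjusted p = 0.0532, edgeR adjusted p = 0.332). Without air replicate 11 the air mean was 421 ± 26.2 CPM (SD, n = 10) and the difference 0.22 on the log2 scale (standard error 0.058, edgeR adjusted p = 0.0335), with 12 of 13 smoke samples above it. This was the only one of the 24 fits with a sample left out in which Map1lc3a was called. With a clock index as a covariate, which correlates with the group at r = 0.72, the value was −0.075 (edgeR adjusted p = 0.760).

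The other ATG8 genes had no call in any of the 35 alternative fits. Map1lc3b averaged 137 CPM in air and 129 CPM in smoke (log2 fold change −0.078), Gabarapl1 133 and 126 CPM (−0.076, and −0.048 without air replicate 11) and Gabarap 107 and 105 CPM (−0.038). Gabarapl2 was low, at 10.8 and 10.9 CPM. Within each sample, Map1lc3a made up 53.1 ± 2.97% (SD) of ATG8 counts in air and 56.9 ± 2.72% (SD) in smoke, and 52.4 ± 1.94% (SD, n = 10) in air without replicate 11. Map1lc3b made up 16.5 ± 1.11% and 15.01 ± 1.01%. These shares were chosen after the single genes were seen and are given without a test. The end of the Map1lc3b transcript holds a stretch of 107 to 112 bases that is at least 95% identical to the transcripts of 29 other genes. Some of these matches are in the same orientation and some in the reverse. The end also overlaps Gm20388 on the same strand and Zcchc14 on the other strand, so the counts of Map1lc3b may hold reads of other genes. The end of Bnip3 is also at least 95% identical to 5 genes elsewhere, over 201 to 300 bases. Of these 3 have a count of 0 and 2 have no count here. Ctsd shares its end with Gm49369 on the same strand.

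**Figure D3:**
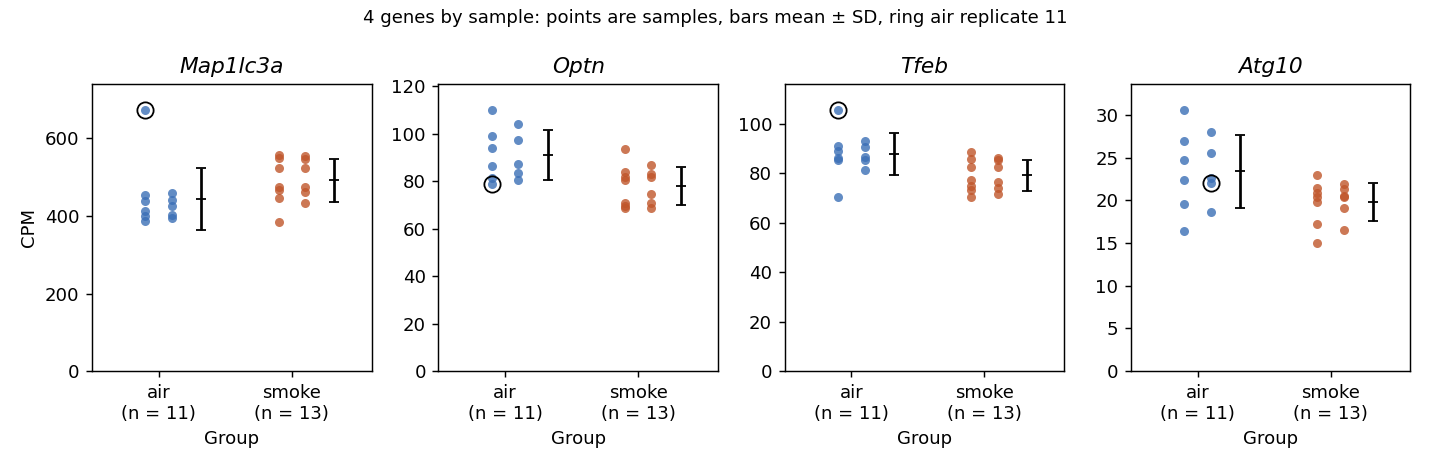
CPM by sample for Map1lc3a, Optn, Tfeb and Atg10; points are samples, bars the mean ± SD, and the ring marks air replicate 11. The ring is the highest Map1lc3a value at 674 CPM, and the Optn and Atg10 means are lower in smoke with overlapping groups.

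Among the cargo receptors Optn came nearest to the threshold. Optn (optineurin) binds ubiquitin and LC3 and takes part in the removal of damaged mitochondria. Air samples lay between 78.7 and 110 CPM (median 87.4) and smoke samples between 68.8 and 93.8 CPM (median 80.4), so that the upper part of the air range had no smoke sample. Means were 91.1 ± 10.5 CPM (SD) in air and 78.1 ± 8.01 CPM (SD) in smoke, a fold of 0.857 or −0.22 on the log2 scale (standard error 0.066, 95% interval −0.36 to −0.09, edgeR adjusted p = 0.0650). Of the 13 smoke samples 12 were under the mean of air. The adjusted p was under the threshold in 4 of the 35 alternative fits: DESeq2 (0.0289), 1 surrogate variable (0.0349), without air replicate 11 (0.0356) and without smoke replicate 8 (0.0408). Its log2 fold change stayed between −0.31 and −0.19 over those fits, with adjusted p from 0.0289 to 0.145. An antisense transcript, 4930551O13Rik, is annotated over Optn on the opposite strand, away from its 3′ end.

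Sqstm1 (p62), the receptor for ubiquitinated protein aggregates, was the most abundant of the group. It lay between 241.9 and 343 CPM in air (median 276) and between 227 and 305 CPM in smoke (median 276), so that the medians nearly coincided. Means were 284 ± 29.6 CPM (SD) in air and 270.02 ± 25.7 CPM (SD) in smoke, or −0.07 on the log2 scale (standard error 0.059, edgeR adjusted p = 0.629). Its highest air value was replicate 11, without which the log2 fold change was −0.043 (edgeR adjusted p = 0.787). Its last 300 bases share 133 with Mrnip on the opposite strand, which had 118 counts in total. Bnip3, a mitophagy receptor of the outer mitochondrial membrane that is known as a target of FOXO3 and of hypoxia signalling, averaged 91.8 CPM in air and 87.1 CPM in smoke (log2 fold change −0.075). The related Bnip3l was at 13.9 and 13.7 CPM, and Nbr1, which works with p62, at 30.01 and 31.2 CPM.

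Tfeb, the regulator of lysosomal genes, was the third member at an unadjusted p under 0.05. Air samples lay between 70.5 and 106 CPM (median 86.6) and smoke samples between 70.6 and 88.7 CPM (median 77.2). The lowest values of the groups were alike, and 12 of 13 smoke samples were under the mean of air. Means were 87.8 ± 8.51 CPM (SD) in air and 79.2 ± 6.24 CPM (SD) in smoke, or −0.15 on the log2 scale (standard error 0.059, unadjusted p = 0.0171, edgeR adjusted p = 0.196). The highest air value, 106 CPM, was replicate 11, and without it the log2 fold change was −0.12 (edgeR adjusted p = 0.278). Tfeb was called in 0 of the 35 alternative fits.

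The lysosomal members, which include genes with the Tfeb core motif, had no call, and 5 of their 6 intervals lay within 0.3 on the log2 scale in either direction, Ctsl being the exception. Lamp1, the main glycoprotein of the lysosomal membrane, was the most abundant and least variable member. It lay between 512 and 568 CPM in air (median 551) and between 485 and 563 CPM in smoke (median 531). Means were 547 ± 17.9 CPM (SD) in air and 528 ± 25.9 CPM (SD) in smoke, or −0.052 on the log2 scale (standard error 0.040, 95% interval −0.13 to 0.03, edgeR adjusted p = 0.583). Ctsd (cathepsin D), an aspartic protease, lay between 489 and 646 CPM in air (median 524) and between 428 and 594 CPM in smoke (median 539). The air range was widened by replicate 11 at 646 CPM. Ctsd means were 534 ± 47.8 CPM (SD) and 523 ± 58.4 CPM (SD), or −0.031 on the log2 scale (standard error 0.059, edgeR adjusted p = 0.865). Its air mean without air replicate 11 was 523 ± 31.7 CPM (SD, n = 10) and its log2 fold change −0.0033 (edgeR adjusted p = 0.989).

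Ctsb, a cysteine protease, averaged 120 CPM in air and 117 CPM in smoke, and Lamp2 56.0 and 57.8 CPM. Gaa, the acid alpha-glucosidase that degrades glycogen, averaged 178 and 183 CPM, and 265 CPM in air replicate 11 against at most 179.7 CPM in the other air samples. Ctsl (cathepsin L), which rises in several forms of muscle atrophy, showed the opposite deviation in that library, at 12.9 CPM against 28.3 to 48.3 CPM in the other 10, and its group means were 33.2 and 35.6 CPM. The log2 fold changes of these 4 genes lay between −0.036 and 0.096. Without air replicate 11 that of Gaa was 0.12 in place of 0.048 (edgeR adjusted p = 0.384) and that of Ctsl 0.0096 in place of 0.096 (edgeR adjusted p = 0.982). In members with CACGTG in the promoter the median log2 fold change was 0.027 (8 genes), and in the members without it −0.073 (21 genes, 1 of them not tested), both given as a description. These medians without air replicate 11 were 0.002 and −0.052. For the AhR core GCGTG, over all samples, the median was −0.077 in members with it (17 genes, 1 of them not tested). It was 0.030 in members without it (12 genes), also given as a description.

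Vcp, a segregase that extracts ubiquitinated proteins and is needed for autophagosome maturation, was the fifth most abundant member. It lay between 199 and 284 CPM in air (median 248.1) and between 207 and 251.3 CPM in smoke (median 244.2). Means were 247.3 ± 21.8 CPM (SD) and 237.6 ± 13.3 CPM (SD), or −0.057 on the log2 scale (standard error 0.051, edgeR adjusted p = 0.654). Together the 36 members summed to 3856 ± 216 CPM (SD) in air and 3801 ± 181 CPM (SD) in smoke. The air value without replicate 11, which had 4401 CPM, was 3801 ± 124 CPM (SD, n = 10).

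The spread between samples differed more among members than the groups did. The coefficient of variation in air ran from 3.27% for Lamp1 to 34.3% for Atg5, and in smoke from 4.91% for Lamp1 to 35.9% for Atg7. Counting error alone gives 2.32% for Lamp1, 18.7% for Atg5 and 22.3% for Atg7, so part of the spread of the low genes is counting error. Better counted genes whose spread was about 2 times the counting error or more in both groups included Ulk1, at 19.3% in air and 16.5% in smoke against 5.98% from counting, and Ctsl, at 30.1% (22.1% without air replicate 11) and 18.4% against 9.09%, Atg3, at 26.7% and 20.01% against 10.2%, Nbr1, at 19.3% and 19.1% against 9.67%, and Gabarapl1, at 14.2% and 13.6% against 4.73%. The median over the 35 members was 15.1% in air and 12.2% in smoke, and 12.9% in air without replicate 11.

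To ask whether members moved together between samples, 10 relations were computed on log2 CPM within groups (5 pairs in air and in smoke), and 0 passed Benjamini-Hochberg adjustment. The closest was Ctsb with the macrophage marker score. That score averages the 8 tested markers, so it leaves out Cd68 and Adgre1 and includes Ctss, itself a lysosomal cathepsin. In smoke (n = 13) Pearson's r was 0.61 (permutation p = 0.0273, adjusted p = 0.148) and Spearman's rho 0.66 (permutation p = 0.0155, adjusted p = 0.108). In air (n = 11) r was 0.64 (permutation p = 0.0297, adjusted p = 0.148) and rho 0.69 (permutation p = 0.0216, adjusted p = 0.108). Leaving out the 2 samples whose Ctsb was farthest from its median, r was 0.66 in smoke and 0.86 in air, and without air replicate 11 it was 0.65 (permutation p = 0.0400, n = 10). The end of the Ctsb transcript overlaps Fdft1 on the opposite strand, which had 5256 counts. Gabarapl1 with Bnip3, Map1lc3b with Sqstm1, Ctsl with Bnip3 and Lamp1 with Ctsd had r from −0.31 to 0.43 (permutation p from 0.162 to 0.892, rho from −0.18 to 0.41 with permutation p from 0.167 to 0.946). Several of these values rest on a few samples. For Map1lc3b with Sqstm1 in air, r was 0.43, and 0.00045 without its 2 farthest samples and 0.074 without air replicate 11. The same 3 values were 0.42, −0.03 and 0.16 for Ctsl with Bnip3, and 0.21, −0.13 and 0.48 for Gabarapl1 with Bnip3. They were 0.046, 0.51 and −0.28 for Lamp1 with Ctsd, which in smoke had r of 0.35, and 0.0067 without its 2 farthest samples.

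Of 156 other autophagy and lysosome genes, 137 were tested and 1 was called, Ctso (0.730%, against 1.92% of all tested genes), while 7 were higher and 15 lower at an unadjusted p under 0.05 (16.1% of these genes, against 15.5% of all tested genes). Their median log2 fold change was −0.038, and 86 (62.8%) were on the negative side, against 48.4% of all tested genes. Ctso (cathepsin O), a lysosomal cysteine protease, lay between 2.57 and 6.60 CPM in air (median 4.49) and between 2.80 and 10.5 CPM in smoke (median 7.32). The groups overlapped, and 11 of 13 smoke samples were above the air mean. Means were 4.61 ± 1.29 CPM (SD) in air and 7.32 ± 2.17 CPM (SD) in smoke, or 0.66 on the log2 scale (standard error 0.18, 95% interval 0.29 to 1.03, edgeR adjusted p = 0.0480). It rested on 10 to 33 counts per sample, and leaving out 1 sample ended the call in 18 of 24 fits (edgeR adjusted p from 0.0154 to 0.0882), all but those without air replicates 1, 2, 4 and 11 or smoke replicates 1 and 8. With a Schwann cell marker score as a covariate, which correlates with the group at r = 0.57, the value was 0.49 (edgeR adjusted p = 0.423). Ctso was called with RLE and upper-quartile scaling, DESeq2 and 1 surrogate variable. It was not called with limma voom, no expression filter, the replicate block, or the red blood cell, macrophage, clock index or Schwann covariates.

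By function, 0 genes were called among partners of initiation and nucleation (6 tested), elongation and closure (9), fusion (12), other cargo receptors (14), nutrient and transcriptional control (29), lysosomal membrane (13), V-ATPase subunits (16) and Vcp cofactors (11), and 1 among lysosomal hydrolases (27). The V-ATPase, the proton pump that acidifies the lysosome, had 13 of 16 tested subunits on the negative side, with a median log2 fold change of −0.10 and 4 subunits lower at an unadjusted p under 0.05 (25.0%), against 48.4% of all tested genes on the negative side and 7.95% lower at that threshold. It was singled out after the values were seen, as the group with the highest negative share of the 9. The other 8 groups had between 48.1% (lysosomal hydrolases) and 72.7% (Vcp cofactors) of genes on the negative side, and between 0 and 3 genes lower at that threshold. Without air replicate 11, edgeR called 3 of 138 tested genes of the wider list (2.17%), against 2.48% of all genes. These were Ctso (log2 fold change 0.67, adjusted p = 0.0460), Slc38a9, an arginine-sensing transporter of the lysosomal membrane (0.48, adjusted p = 0.0467), and Retreg1, a receptor for breakdown of the endoplasmic reticulum (−0.36, adjusted p = 0.0460). Over all 24 samples Slc38a9 averaged 11.5 CPM in air and 15.7 CPM in smoke (edgeR adjusted p = 0.0627) and Retreg1 157 and 128 CPM (adjusted p = 0.132).

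**Figure D4:**
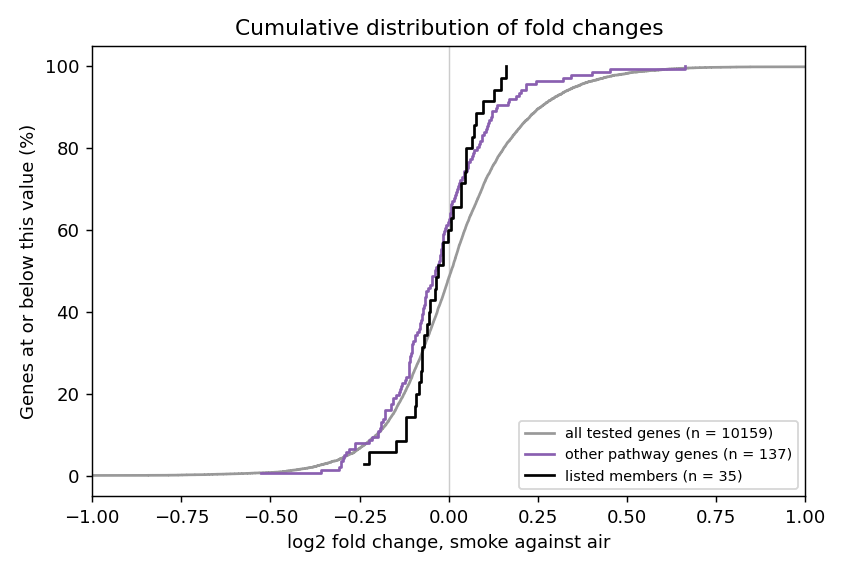
Cumulative share of genes (%) against the log2 fold change of smoke against air for all 10159 tested genes (grey), 137 other pathway genes (purple) and 35 listed members (black). The member curve is the steepest, with all values between −0.24 and 0.16. The lists were not matched for count level.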

How the data were processed

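The deposited table holds whole-number read counts, without normalization, for 24 samples and Ensembl gene IDs. Per the labels' protocols, plantaris RNA went into Lexogen QuantSeq 3′ forward libraries read on an Illumina HiSeq instrument. The submitters' processing notes name STAR, DESeq2 and mm9 without roles; the counting tool, annotation, strand use, read filters and molecular identifiers are not given in the sources used here. Symbols came from GENCODE M21 (GRCm38), which held 47224 of 47643 IDs (99.1%). Because this build differs from the one noted, no gene coordinates are printed, and those of promoter stretches belong to RefSeq's GRCm38.p6 table.

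Counts were analysed in R 4.3.3 with edgeR 4.0.16: filterByExpr by group with a minimum count of 10, TMM scaling, and the quasi-likelihood F-test of smoke against air on 24 samples without covariates. P-values were Benjamini-Hochberg adjusted over all tested genes and called under 0.05. Standard errors and 95% intervals came from the F statistic. The procedure was tested on simulated data. Nothing in the labels says that samples are separate animals, so p-values measure the spread between samples. Floors cover counting error only. No 2 libraries of a group agreed within sampling noise (133 pairs, chi-square per gene at least 2.52). Correlations used log2 CPM with a prior count of 2 and 100000 permutations, two-sided. Last 300 bases of transcripts were aligned with blastn 2.17.0+ (95% identity over 100 bases).

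Alternatives were DESeq2 1.42.0, voom from limma 3.58.1, scaling by RLE or upper quartile, no expression filter, the replicate number as a block, covariates (red blood cell, macrophage and Schwann marker scores, a clock index, 1 surrogate variable from sva 3.50.0) and each sample left out. Members and lists were chosen with earlier results of these data known. Named in full were members at an unadjusted p under 0.05, the 6 with the highest mean CPM and called genes of the wider list; Slc38a9, Retreg1, the V-ATPase group and air replicate 11 were singled out after their values were seen.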

Additional observations from a re-analysis of the deposited data

How the results depend on the processing

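Against 195 genes called, 0 members and 1 gene of the wider list, DESeq2 called 330 genes, 1 member and 3 wider genes, and 1 surrogate variable 439, 1 and 4; the cause was not tested. Red blood cell and clock index covariates gave 77 genes each and the Schwann score 60, with 0 members each. The wider count was 0 with limma voom, without an expression filter, under the replicate block and with the red blood cell, macrophage and Schwann scores. Leaving out each sample in turn gave 141 to 254 genes, 0 to 2 members and 0 to 3 wider genes.

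Replicate numbers occur in both groups, but nothing ties them to shared animals. Deviations of same-numbered samples correlated at a mean r of −0.0059 over 11 pairs (from −0.28 to 0.14), and 2 of 11 air samples correlated best with their own number. With the replicate block, over 22 samples, 138 genes and 0 members were called.

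Of the 35 tested members 21 kept the sign of their log2 fold change in all 35 alternatives, and 14 changed it in at least 1 (Ulk1, Ulk2, Atg5, Atg7, Atg16l1, Wipi2, Map1lc3a, Gabarap, Gabarapl2, Nbr1, Bnip3l, Ctsb, Ctsd and Gaa). Among members described with full statistics these were Map1lc3a with the clock index (−0.075), Ctsd with the Schwann score (0.021) and Ulk2 without air replicate 11 (0.0033, with −0.048 to 0.0033 over all samples left out in turn). The r of Lamp1 with Ctsd in air was −0.017 under RLE scaling and −0.28 without air replicate 11. Of the relations, 0 passed under RLE scaling or a prior count of 0.5. The low members (Pik3c3, Atg5, Atg7, Atg14) are limited by depth, and Atg9a did not pass the expression filter.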
